A study of Homo sapiens with 5 samples.

Results

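The 4 human HOX gene clusters, HOXA, HOXB, HOXC and HOXD, held 172 of the 80514 SRSF9 peaks in the deposited table. A peak was taken as a member if at least 1 nt of it lay in one of 4 windows on hg19: chr7:27132001-27250000 for HOXA, chr17:46604001-46807000 for HOXB, chr12:54330001-54450000 for HOXC and chr2:176957001-177056000 for HOXD. The windows were set by position, without regard to any peak value. SRSF9, a serine/arginine-rich splicing factor, was mapped by eCLIP, in which RNA fragments bound to a protein are recovered by immunoprecipitation and sequenced. All libraries came from HEK 293T cells, a human embryonic kidney line. Of these, 2 came from cells that overexpressed SRSF9 alone and 2 from cells that overexpressed SRSF9 and ADAR2, the deaminase that turns adenosine into inosine in double-stranded RNA. SRSF9 was thus overexpressed in every library, controls included, and the series names its question as how SRSF9 acts against ADAR2 targets. The labels name an SRSF9 antibody in 1 field and MYC-coupled beads in another. They do not say whether the 2 libraries of a condition were separate cultures, so a p-value speaks only of how far these 4 libraries scatter, and that scatter may be technical.

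HOX genes encode homeodomain transcription factors that give cells their position along the body axis. They lie in clusters in which the order of the genes follows the order of their use, from the head end (low gene numbers) to the tail end (high numbers), a property called collinearity. Members of the HOX11 paralogue group act in the formation of the kidney. The clusters are also transcribed from the opposite strand, for example into the long noncoding RNAs HOTAIR at HOXC and HOTTIP at HOXA, and contain microRNA genes. By RefSeq gene order, which placed all 38 HOX genes of the list (10 at HOXA, 10 at HOXB, 9 at HOXC and 9 at HOXD), coordinates run from HOXA2 up to HOXA13 and from HOXB1 up to HOXB13. They run the other way at HOXD, from HOXD13 to HOXD1, and at HOXC, from HOXC13 to HOXC6, HOXC5 and HOXC4, whose records start at the same place in that table. HOXC4 is known to be the outermost of these and is used to name that end. The gene annotation at hand is on GRCh38 and not on hg19, and the table has no strand. Peaks were therefore placed by hg19 position and cluster end and not assigned to a gene, exon, intron or strand, and a HOX transcript and an antisense transcript cannot be told apart here.

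Nearly all HOX peaks were classed by the authors as present only with ADAR2. HOXB had 58 such peaks of 59, HOXC 44 of 44, HOXA 37 of 39 and HOXD 25 of 30. Together these were 164 of 172 peaks, or 95.3% (95% Wilson interval 91.1 to 97.6), where the share over all peaks of the table was 89.4%. A further 6 HOX peaks were found only without ADAR2, 3.49% (1.61 to 7.40) beside 5.92% of all peaks, and 2 were shared by both conditions, 1.16% (0.319 to 4.14) beside 4.72%. Pooled, the HOX shares thus lay on the side of more peaks found only with ADAR2. HOXD went the other way, with 83.3% (66.4 to 92.7) found only with ADAR2 and 13.3% (5.31 to 29.7) only without it. Both HOXD intervals held the share over all peaks. The table has 1 peak set per condition and no read depth, so nothing is known of how the shares would vary from library to library, no test was made, and the intervals cover counting error over peaks only. It also holds no level of HOX RNA, so more RNA and more SRSF9 bound per RNA cannot be told apart.

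HOXD had the most peaks present without ADAR2. These were 5 peaks among 30, 16.7% (7.34 to 33.6), of which 4 were found only without ADAR2 and 1 was shared. HOXA had 2 among 39, 5.13% (1.42 to 16.9), and HOXB had 1 among 59, 1.69% (0.300 to 9.00). HOXC had 0 among 44, which allows a share of up to 6.82%. Over all peaks the share was 10.6%, inside the interval of HOXD and of HOXA and above that of HOXB and HOXC. The intervals of HOXD and HOXB overlapped, and the order of the clusters was not tested. Counted by condition, HOXD had 26 peaks with ADAR2 and 5 without, a ratio of 5.20, while HOXA had 38 and 2, a ratio of 19.0, and the whole table a ratio of 8.84.

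**Figure D1:**
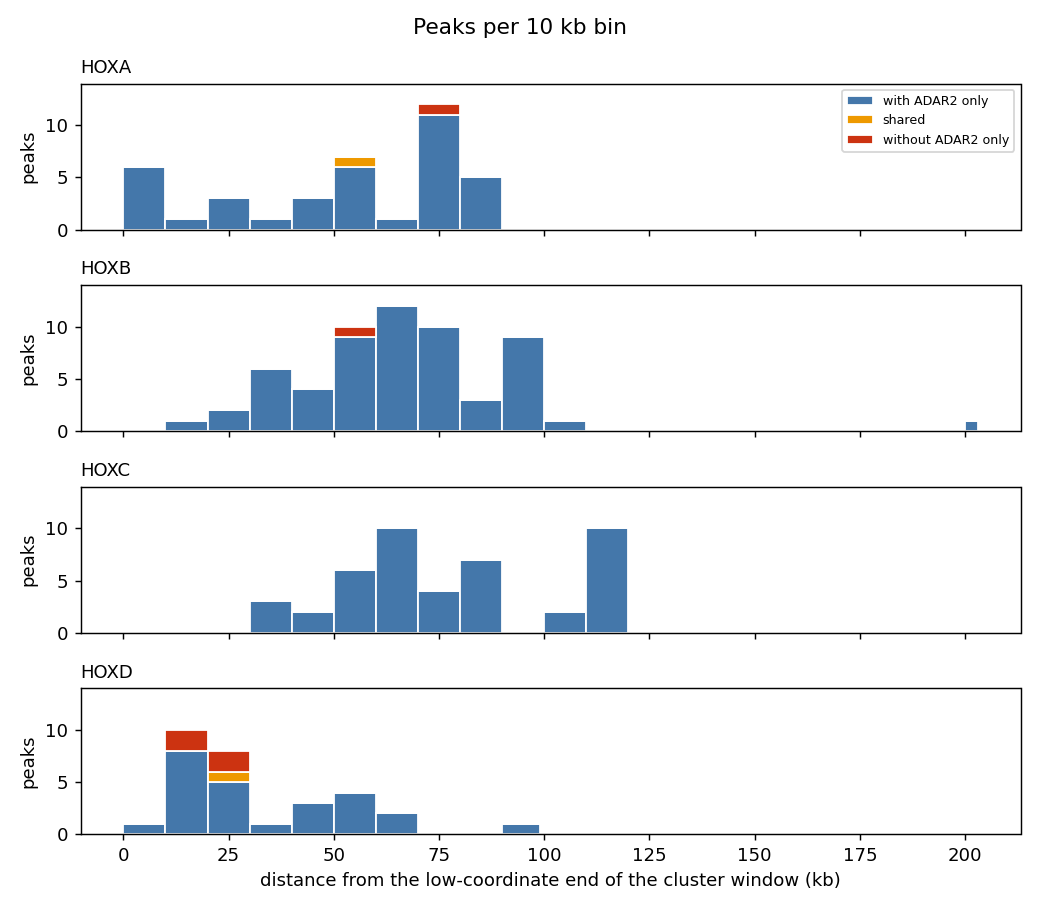
Number of peaks (y axis) in each 10 kb bin, by distance from the low-coordinate end of the cluster window (x axis, kb), for the 4 clusters. Bars are stacked by class: found only with ADAR2, shared, and found only without ADAR2. HOXA and HOXB reach 12 peaks in 1 bin, the HOXD peaks present without ADAR2 lie in 2 neighbouring bins, and HOXC has none.

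Counted over their whole windows, the clusters were similarly dense in peaks. HOXC had 3.67 peaks per 10 kb, HOXA 3.31, HOXD 3.03 and HOXB 2.91. This order depends on how much empty DNA a window holds. Of the bins of up to 10 kb, 10 of 21 were empty at HOXB, 4 of 12 at HOXC, 3 of 12 at HOXA and 2 of 10 at HOXD. Over the 9782 windows of 100 kb with any peak in the table, the median was 5 peaks per window and the 90th percentile 19. These 2 values are per 100 kb and not per 10 kb. The HOXD window, 99 kb long, held 30 peaks, more than that 90th percentile. HOXA had 39 peaks in 118 kb, HOXC 44 in 120 kb and HOXB 59 in 203 kb, each also denser than 19 per 100 kb. This was not tested. The DNA on either side was nearly empty of peaks except at 1 border. Windows of the same length as the cluster, directly beside it, held 0 and 0 peaks at HOXA, 0 and 1 at HOXC, 3 and 4 at HOXD, and 0 and 19 at HOXB on the low and high side. The 19 peaks lie beyond the HOXB13 end. Which genes lie there on hg19 was not analysed here, and the windows beside the clusters were chosen after the data were examined.

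HOXA peaks lay between 3.88 and 87.6 kb from the HOXA2 end. None lay in the last 3 bins, toward HOXA13, a gene of limb and genital development. The fullest bin, 70 to 80 kb from the HOXA2 end, held 12 peaks. All 38 HOXA peaks with ADAR2 were above 0 in both libraries, a share with a Wilson interval of 90.8% to 100%. Over all peaks with ADAR2 the share was 92.5%, inside that interval, so HOXA was not set apart by this count. The highest mean was at chr7:27156955-27156989, with log2 ratios of 1.88 and 2.87 in the first and second library with ADAR2. It was followed by chr7:27204948-27205100, with 2.22 and 1.76, and chr7:27189812-27189870, with 1.51 and 2.35. The libraries thus differed in which of these peaks was the strongest. The lowest peak, chr7:27212297-27212300, had 0.81 and 0.06. The other low peaks were chr7:27188380-27188414, with 0.31 and 0.60, and chr7:27142178-27142212, with 0.88 and 0.06. The widest peak of all 4 clusters was also in HOXA, at chr7:27191924-27192079. It was 156 nt wide, with 1.88 and 1.63.

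The largest group of neighbouring peaks in any cluster was at HOXA, with 12 peaks over 2061 nt, chr7:27203040-27205100. Each peak of a group lay within 1 kb of the next. Groups were ranked by their number of peaks and not by density. The largest groups of HOXC and HOXD had 6 peaks each, over 3256 and 2705 nt. HOXB had 3 tied groups of 4 peaks, the first of them over 725 nt. In the HOXA group 11 peaks were found only with ADAR2 and 1 only without it. In the first library with ADAR2 these 11 had log2 ratios from 0.94 to 2.39 with a median of 2.12, and in the second from 0.26 to 1.76 with a median of 1.12. The first library was the higher one at 10 of the 11. At the other 27 HOXA peaks the medians were 1.07 and 0.98, and the first library was the higher at 17. The group thus stood above the rest of HOXA mainly in 1 library. There 3 neighbouring peaks carried the same ratio of 2.22 in the first library and 1.48, 0.51 and 1.76 in the second, so the first library does not give them 3 separate measurements. The group was picked after its peaks were seen.

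**Figure D2:**
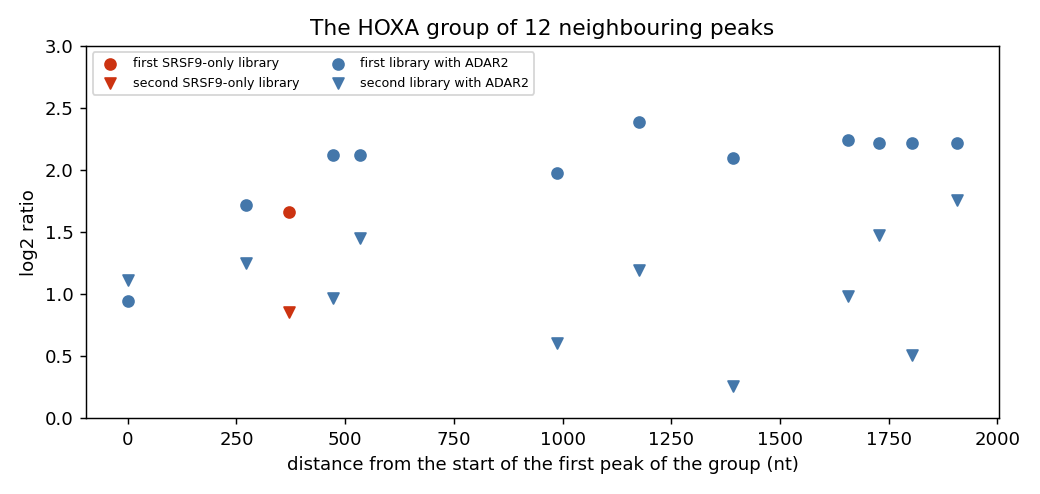
Log2 ratio (y axis) of the 12 neighbouring HOXA peaks by distance from the start of the first of them (x axis, nt). Blue marks are the 2 libraries with ADAR2 and red marks the 2 SRSF9-only libraries, with circles for the first and triangles for the second library of a condition. The first library with ADAR2 lies above the second at 10 of 11 peaks, and the 1 peak found only without ADAR2 lies between its neighbours.

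HOXB had the most peaks and, after its main block, the longest empty stretch. All but 1 of its peaks lay between 16.4 and 107 kb from the HOXB1 end, and the next peak came 93.0 kb further on. That last peak, chr17:46804015-46804037, stood in the last bin of the window, at the HOXB13 end, with 2.07 and 1.65 in the libraries with ADAR2. HOXB13, known from the prostate, lies apart from the rest of its cluster. This single peak was chosen after its position was seen. The fullest bin was 60 to 70 kb from the HOXB1 end, with 12 peaks.

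The strongest HOX peak by the mean of both libraries was in HOXB. This was chr17:46657093-46657116, with 3.65 and 2.38 in the first and second library with ADAR2. The next highest in HOXB were chr17:46641673-46641696, with 2.98 and 2.65, and chr17:46636482-46636496, with 3.07 and 2.06. Both libraries were above 2 at each of these. In all, 9 of 58 HOXB peaks, 15.5% (8.38 to 26.9), were above 2 in both libraries, beside 9.61% of all peaks with ADAR2. Only 3 were below 0 in both, 5.17% (1.77 to 14.1) beside 7.45% of all peaks, and these 3 all lay 90 to 110 kb from the HOXB1 end, where the other 7 peaks were above 0. The lowest was chr17:46710999-46711030, with -1.35 and -0.75, then chr17:46700221-46700232, with -0.59 and -1.38, and chr17:46703489-46703567, with -0.23 and -0.17. Of the 44 peaks from 30 to 90 kb none was below 0. The widest HOXB peak, chr17:46691788-46691892, measured 105 nt, with 1.17 and 0.48.

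HOXC was the cluster with peaks in 1 condition only. The first 37.3 kb from the HOXC13 end, the end of a gene needed in hair and nails, held no peak. The remaining peaks included stretches of unlike strength and a mixed part between them. From 40 to 60 kb the 8 peaks had log2 ratios of 1.29 to 4.46 (median 2.07) in the first library with ADAR2 and 0.80 to 2.06 (median 1.54) in the second. From 80 to 90 kb the 7 peaks had 0.33 to 0.81 (median 0.48) and 0.06 to 0.80 (median 0.48). These ranges did not overlap in the first library and met only at 0.797 in the second. Between these 2 stretches high and low peaks were mixed. The 10 peaks from 60 to 70 kb had 2-library means of -0.27 to 2.38. The 4 peaks from 70 to 80 kb had means of -0.165 to 2.11. At the HOXC4 end, from 110 to 120 kb, the 10 peaks had medians of 1.12 and 1.06. This bin and that from 60 to 70 kb were the fullest of HOXC. The stretches were picked after the values were seen, and their differences were not tested.

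The highest HOXC peak by its mean, chr12:54388706-54388709, rested on 1 library. It was 4 nt wide, with 4.46 in the first and 0.80 in the second library with ADAR2. The difference of 3.67 was the largest of the first over the second library among all 75751 peaks with ADAR2 in the table. The next highest peaks were alike in both libraries. At chr12:54399544-54399595 the ratios were 2.24 and 2.52, and at chr12:54367476-54367507 they were 1.88 and 2.65. Of the 44 HOXC peaks 3 were below 0 in both libraries: chr12:54440635-54440657 with -1.05 and -0.94, chr12:54397912-54397924 with -0.42 and -0.13, and chr12:54405476-54405502 with -0.25 and -0.08. The widest HOXC peak, chr12:54393665-54393736, measured 72 nt, with 1.47 and 1.59.

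The 3 highest HOXD peaks found only with ADAR2 lay outside a stretch of mostly low ratios, 1 on its HOXD13 side and the others beyond it. The highest was the first peak of the window, 0.649 kb from the HOXD13 end, at chr2:176957650-176957698, with 2.65 and 3.23. HOXD13 is a gene of digit formation. The next, chr2:177015433-177015482, had 2.88 and 2.97, and the third, chr2:177020393-177020393, a peak of 1 nt, had 1.65 and 2.65. Between the highest peak and the low stretch, the other peaks had 2-library means of 1.57, 0.62, 1.00 and 0.59. The stretch itself held chr2:176974861-176974901, with 1.77 and 2.38. In the class found only with ADAR2, the lowest were chr2:176981133-176981156, with -0.44 and -0.88, and chr2:176977019-176977027, with -0.67 and -0.07. The third lowest of that class was chr2:177011805-177011809, with 0.07 and 0.06. The widest HOXD peak was 86 nt, at chr2:176972185-176972270, with 0.77 and 0.42. Toward HOXD1, 33.3 kb without a peak lay before the last one.

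All 5 HOXD peaks present without ADAR2 lay within 9.55 kb, chr2:176973751-176983304, on the HOXD13 side of the window. HOXD peaks of any class were concentrated there. The 2 fullest bins, from 10 to 30 kb from the HOXD13 end, held 18 of the 30 HOXD peaks. The fullest, from 10 to 20 kb, held 10. The stretch of 9.55 kb also held 9 peaks found only with ADAR2. The 10 peaks there with a value with ADAR2 had means of -0.66 to 2.08, with a median of 0.64. The 16 peaks elsewhere in HOXD had means of 0.06 to 2.94, with a median of 1.47. Both libraries were above 1 at 1 of the 10 and at 9 of the 16, and both were below 0 at 3 of the 10 and at 0 of the 16. Peaks of both conditions thus lay together in a stretch where ratios with ADAR2 were mostly low. The stretch was defined by the class of its peaks, and the ranges overlapped.

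**Figure D3:**
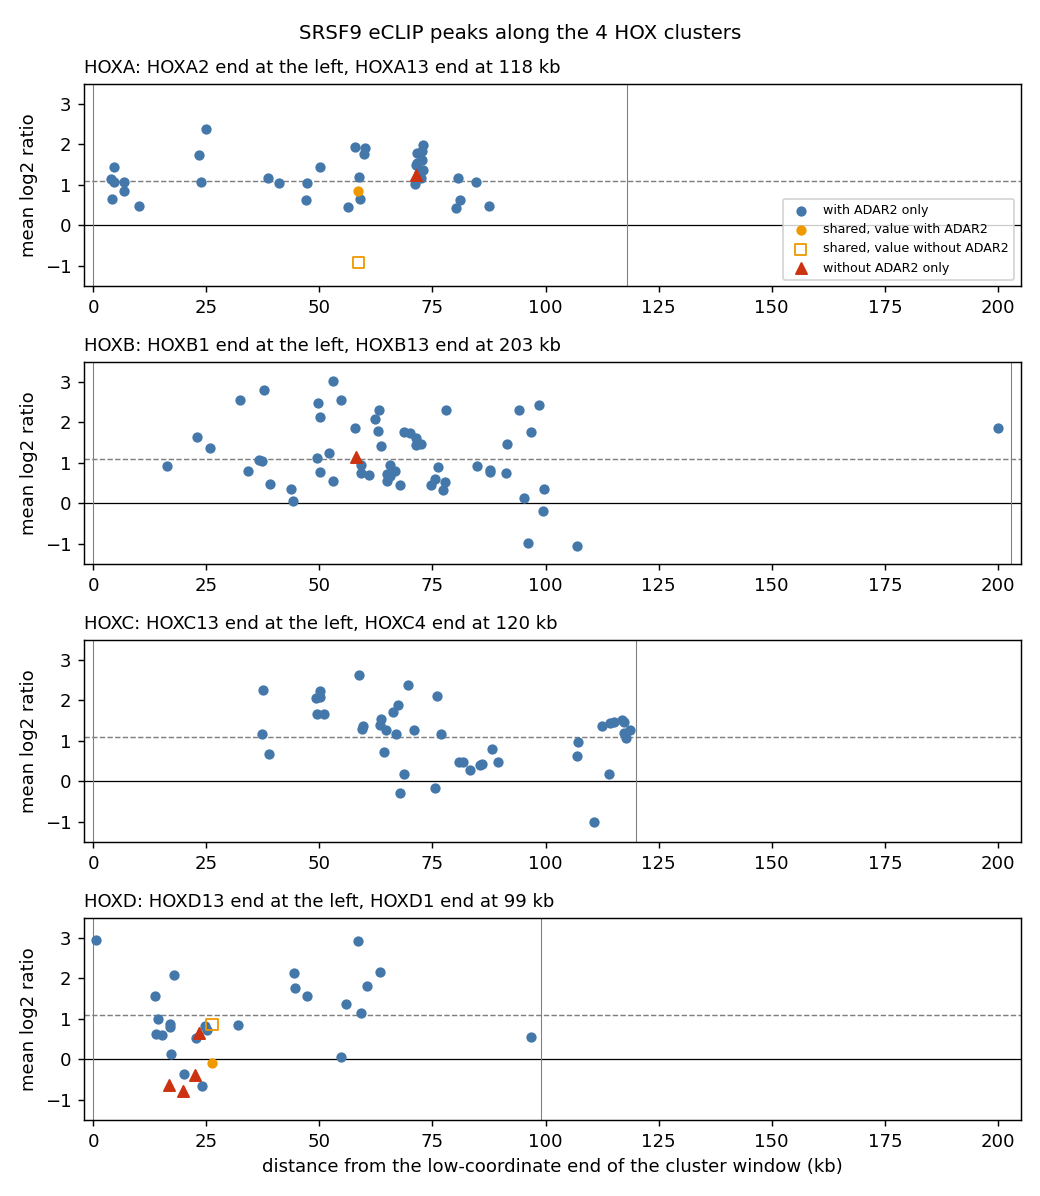
Mean log2 ratio of the 2 libraries of a condition (y axis) for each peak, by distance from the low-coordinate end of the cluster window (x axis, kb). Blue circles are peaks found only with ADAR2, red triangles peaks found only without it, and orange marks the 2 shared peaks, filled for the value with ADAR2 and open for the value without. The grey dashed line is the median of 1.10 over all peaks with ADAR2, and vertical lines are the window ends. The lone HOXB peak at the far right, the low HOXC values from 80 to 90 kb and the HOXD peaks present without ADAR2 from 16 to 27 kb can be read off.

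The median height of HOX peaks with ADAR2 was close to that over the whole table, and differences between clusters were not tested. The median log2 ratio in the first and second library with ADAR2 was 1.24 and 1.02 over 38 HOXA peaks, 1.12 and 1.06 over 58 HOXB peaks, 1.07 and 1.06 over 44 HOXC peaks, and 1.07 and 0.97 over 26 HOXD peaks. Over all 75751 peaks with ADAR2 it was 1.16 and 1.06. The median of the 2-library means gave another order, with 1.27 at HOXC, 1.17 at HOXA, 0.95 at HOXB and 0.86 at HOXD, beside 1.10 over all peaks. Both libraries were above 1 at 16 HOXA, 27 HOXB, 21 HOXC and 10 HOXD peaks, together 44.6% (37.2 to 52.2) of 166, beside 43.0% of all peaks. Both were below 0 at 9 of the 166, 5.42% (2.88 to 9.98), beside 7.45% of all peaks. None of the 9 was in HOXA, where a count of 0 among 38 allows up to 7.89%. Above 2 in both libraries were 9 of 58 HOXB, 3 of 44 HOXC, 3 of 26 HOXD and 0 of 38 HOXA peaks. Together these were 15 of 166, 9.04% (5.55 to 14.4), beside 9.61% of all peaks with ADAR2. The table-wide share lay inside the intervals of HOXB (8.38 to 26.9), HOXC (2.35 to 18.2) and HOXD (4.00 to 29.0). The HOXA count of 0 allows up to 7.89%.

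**Figure D4:**
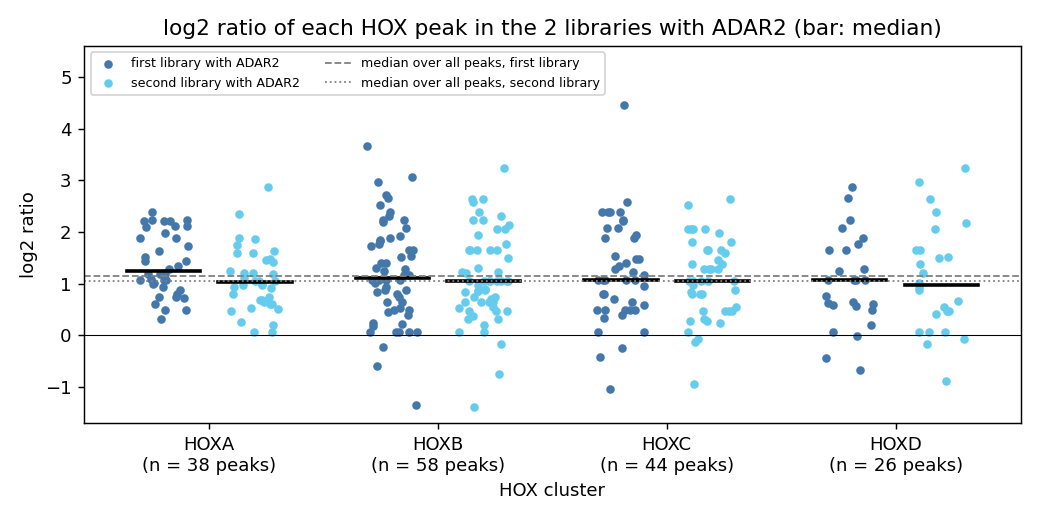
Log2 ratio (y axis) of every HOX peak with ADAR2 in the first (dark blue) and second (light blue) library of that condition, by cluster (x axis). Black bars are medians over the peaks and grey lines the medians over all 75751 peaks with ADAR2, 1.16 and 1.06. The cluster medians lie between 0.97 and 1.24, and the highest point, 4.46 in HOXC, has 0.80 in the second library.

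Of the 8 HOX peaks present without ADAR2, none was above 1 in both SRSF9-only libraries. The share over all peaks present without ADAR2 was 9.22%, and a count of 0 among 8 allows up to 37.5%. Below 0 in both were 4 of the 8, 50.0% (21.5 to 78.5), beside 25.7% of all. The HOXA peak found only without ADAR2, chr7:27203410-27203464, had 1.66 and 0.85 in the first and second SRSF9-only library. It lay 47 nt from the nearest peak with ADAR2, inside the group of 12. The HOXB peak, chr17:46662158-46662169, had 2.24 and 0.06. The first SRSF9-only library was the higher one in general, with medians of 1.07 and 0.24 over all 8565 peaks present without ADAR2. The HOXA peak found only without ADAR2 was above the median in both libraries, the HOXB peak only in the first. The HOXB peak lay 281 nt from the nearest peak with ADAR2.

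Of the 4 HOXD peaks found only without ADAR2, 3 were below 0. These were chr2:176973751-176973772 with -0.24 and -1.02, chr2:176976805-176976819 with -0.76 and -0.80, and chr2:176979429-176979435 with -0.34 and -0.44. The peak at chr2:176980489-176980518 had 0.98 and 0.35. Their nearest peaks with ADAR2 lay 97, 199, 216 and 614 nt away. For the shared HOXD peak the nearest other peak with ADAR2 was 1125 nt away. Among all neighbouring HOXD peaks the median gap was 936 nt, and 51.7% of gaps were 1 kb or less. These distances were not tested against that local density. The peaks below 0 are places where the authors' table lists a peak although its ratio is under 1 on the linear scale.

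The 2 shared HOX regions moved in opposite directions. At HOXA, chr7:27190579-27190592, the SRSF9-only libraries had -0.08 and -1.77, and those with ADAR2 had 0.75 and 0.94. Both libraries with ADAR2 lay above both without, as in 49.9% of the 3645 shared regions of the table, and the sign turned from below to above 0, as in 22.8%. The means were -0.92 ± 1.20 and 0.84 ± 0.13 (SD, n = 2 libraries each). By limma over all shared regions the region rose by 1.77 ± 0.59 (SE, 95% interval 0.61 to 2.92), with a Benjamini-Hochberg adjusted p of 0.0201. That SE was the same for every region, so it and the interval do not carry this region's own scatter. In that direction 18.5% of all regions were called. The first SRSF9-only library was only just below 0 there. After each library was centred on its median the rise was 1.18, with a limma adjusted p of 0.0553. With a variance trend or with repeated rows kept, it passed (limma adjusted p = 0.00107 and 0.0191). With 1 of the 4 libraries left out the rise was 0.92 to 2.61, in fits with a single library in 1 condition, none of which called it.

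At HOXD, chr2:176983259-176983304, the SRSF9-only libraries had 1.47 and 0.28, and those with ADAR2 had -0.01 and -0.17, so the groups did not overlap. The first library with ADAR2 was only just below 0 there, at -0.005. Both libraries with ADAR2 lay below both without in 9.22% of all shared regions, and 2.19% turned from above to below 0. The means were 0.87 ± 0.84 and -0.09 ± 0.12 (SD, n = 2 each). The difference of -0.96 ± 0.59 (SE, again the one given to every region, 95% interval -2.12 to 0.20) did not pass (limma adjusted p = 0.244). After centring it was -1.55 and passed, with a limma adjusted p of 0.00998. Of all shared regions 2.41% were called lower with ADAR2, 88 beside 675 called higher, and centring, which moved the median difference from 0.62 to 0.03, made these 396 and 459. Neither HOX region thus had a call that held on both scales. No peak of HOXB or HOXC was shared, so ratios could not be compared between conditions there.

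**Figure D5:**
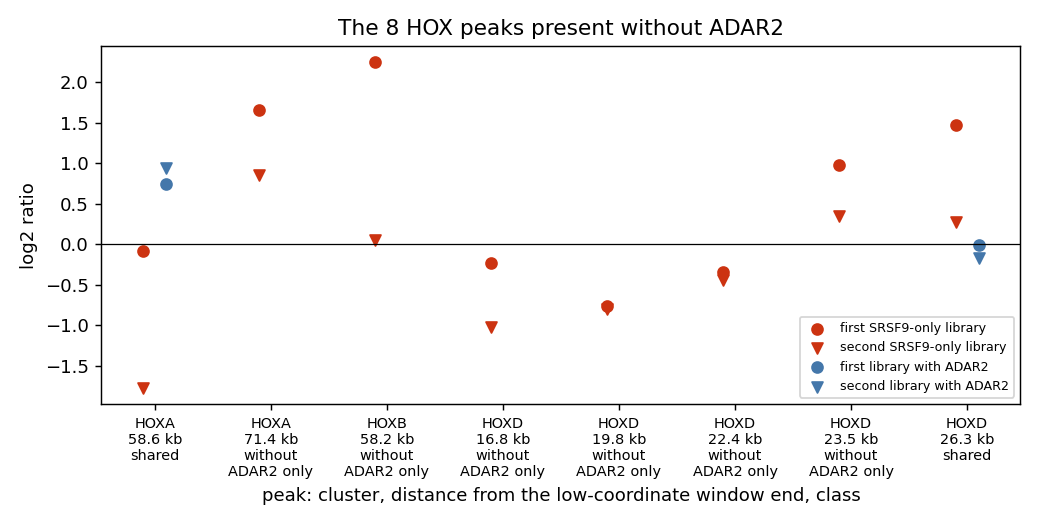
Log2 ratio (y axis) in each library for the 8 HOX peaks present without ADAR2 (x axis: cluster, distance from the low-coordinate window end, class). Red marks are the SRSF9-only libraries and blue marks the libraries with ADAR2, which have values only at the 2 shared peaks. No peak is above 1 in both SRSF9-only libraries. The 2 shared peaks change sign in opposite directions, at HOXD with a value of only -0.005 in the first library with ADAR2.

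HOXA peaks were the widest of the 4 clusters. Their median width was 42 nt (quartiles 20.5 and 57.5), beside 32 nt at HOXD, 29 nt at HOXB and 27.5 nt at HOXC, and 34 nt over all peaks. The quartiles overlapped between all clusters. Peaks of 10 nt or less made up 6 of 30 at HOXD, 4 of 39 at HOXA, 4 of 59 at HOXB and 4 of 44 at HOXC, beside 9.97% of all peaks, and 4 HOX peaks were 1 nt wide. Peaks covered 1.52% of the HOXA window and 1.02% to 1.08% of the other windows. Neighbouring peaks lay close together: the median gap was 429 nt at HOXA, 781 nt at HOXC, 895 nt at HOXB and 936 nt at HOXD, beside 2079 nt over all peaks of the table. The table-wide value includes the long spaces between genes, so it is not matched to the clusters.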

How the data were processed

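The deposited table lists peaks on hg19, per the submitters' processing notes, with 4 columns that the authors left without names. Their values were read as log2 ratios made by the authors, whose denominator is not named. The aligner, peak caller, thresholds and depth were not given in the sources used here. A pair of zeros stands for an absent peak, and by the class column the first pair belongs to SRSF9 alone and the second to SRSF9 with ADAR2. First and second library follow file order. The input library has no column and was not used. Python 3.11.15 was used for counts. Shared regions, with 157 repeated rows averaged (0 of them HOX), were tested with limma 3.58.1 in R 4.3.3, with Benjamini-Hochberg adjustment over all 3645, a threshold of 0.05 and 2 libraries per condition. limma was tested on simulated data. On the deposited scale and without a variance trend, limma gave every region the same SE. An exact permutation test of 2 against 2 libraries cannot go below p = 0.333. The clusters, lists and named peaks were chosen with earlier results of these data known. Named by rule were all shared peaks, all peaks found only without ADAR2, the 3 highest and 3 lowest peaks found only with ADAR2 and the widest peak of each cluster, and the fullest 10 kb bins. Other settings were the overlap rule, windows widened by 10 kb, peaks within 100 nt merged, thresholds of 0 and 1, centring, a variance trend, repeated rows kept, and each library left out.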

Additional observations from a re-analysis of the deposited data

How the results depend on the processing

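Requiring the whole peak inside the window, widening the windows by 10 kb or merging peaks of a class within 100 nt left each cluster's count of peaks, and of peaks present without ADAR2, within 1.5 times. A ratio above 1 in both libraries left 16 HOXA, 27 HOXB, 21 HOXC and 10 HOXD peaks, with 0 present without ADAR2 in each cluster. A ratio above 0 in every library with a value left 1 present without ADAR2 at HOXA and 1 at HOXD. By the SRSF9-only libraries alone, 2 of the 5 at HOXD and 1 of the 2 at HOXA were above 0 in both. Centring each library on its median over all its peaks put the cluster medians with ADAR2 at 0.063 for HOXA, 0.16 for HOXC, -0.16 for HOXB and -0.25 for HOXD, a change of sign for the last 2 that centring makes by its construction. The rise of the shared HOXA region was 1.18 after centring (limma adjusted p = 0.0553) and ranged from 0.92 to 2.61 with 1 library left out. It did not pass in these, and it passed with a variance trend (limma adjusted p = 0.00107) and with repeated rows kept (0.0191). Fits with 1 library left out have a lone library in 1 condition, assumed to vary like the others, and say little of the call: with either SRSF9-only library out, limma called 0 regions of the whole table (1405 and 1051 at an unadjusted p under 0.05). The shared HOXD region had -1.55 after centring (limma adjusted p = 0.00998) and did not pass in the other fits. Neither region could be tested among regions above 0 in all 4 libraries, since each has values below 0. No paired analysis was possible because the columns carry no replicate numbers. Read depth is unknown, so no value has a counting interval.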

Other observations

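Many HOX ratios repeated the same few values. Over the 166 HOX peaks with ADAR2, the value 1.069 stood 16 times in the first library and 1.06 stood 16 times in the second, and the 4 commonest values made up 24.1% and 26.5% of the entries. Over all 75751 peaks they made up 26.8% and 27.9%.

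Neighbouring HOX peaks within 1 kb sometimes carried the very same value in a library. Of 88 neighbouring pairs, 8 were equal in the first library with ADAR2 and 4 in the second, 9.09% and 4.55%, beside 10.2% and 7.81% of 26000 such pairs over the table. HOXA had 4 of these pairs in the first library and 0 in the second, of 23 pairs.

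The 2 libraries with ADAR2 ordered the peaks of some clusters more alike than of others. Across peaks, which are not independent replicates and share each library's scale, Pearson's r was 0.84 over 26 HOXD peaks, 0.79 over 58 HOXB peaks, 0.55 over 44 HOXC peaks and 0.35 over 38 HOXA peaks, beside 0.75 over all peaks with ADAR2. Spearman's rho was 0.80, 0.77, 0.57 and 0.40, beside 0.67. HOXA values spanned 0.31 to 2.39 in the first and 0.06 to 2.87 in the second library, the narrowest range of the 4 clusters in each.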
